A study of Mus musculus with 6 samples.

Results

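The genes that make sterols and fatty acids, the SREBP and LXR factors that control them, and the cholesterol efflux genes were examined in the left ventricular apex of mice with an induced loss of PTIP, a subunit of complexes that methylate histone H3 at lysine 4. Members were taken from a list of 40 genes, and a probe set was used when the platform annotation tied it to 1 member gene. Of the 40, 38 genes with 88 probe sets could be measured, among 18193 genes and 45037 probe sets in all. Nr1h2 and Soat1 were not analysed here. By role, 17 measured genes belong to sterol synthesis, 5 to the SREBP regulators, 11 to fatty acid synthesis and 5 to LXR signalling and sterol handling.

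RNA was hybridised to 1 Affymetrix array per mouse in 3 knockout and 3 control mice, all female littermates on a mixed C57B6 and B6129 background. Knockout mice had 1 floxed and 1 null allele of Paxip1, which encodes PTIP, plus a transgene for a Cre recombinase fused to a modified estrogen receptor under the alpha myosin heavy chain promoter. That promoter acts in cardiomyocytes, so the other cells of the apex keep the floxed allele. Control mice had 1 floxed and 1 wild-type allele, and no Cre transgene is named for them. Mice of both groups were given tamoxifen at 20 mg/kg at 8 weeks of age, and the labels place RNA collection 5 days after it in one field and give 5 days of treatment in another. The transgene and the null allele therefore differ between the groups along with the induced deletion, and their effects cannot be told apart. A number in the labels, whose meaning they do not give, starts alike for knockout 3 and all controls and otherwise for knockouts 1 and 2. Whatever it stands for is partly confounded with genotype and cannot be fully told apart from it.

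Cells make cholesterol from acetyl-CoA through mevalonate, farnesyl pyrophosphate, squalene and lanosterol. When membrane sterol falls, Scap carries the SREBP precursors out of the endoplasmic reticulum for cleavage, and the released factors raise transcription of this pathway (mainly SREBP2, from Srebf2) and of fatty acid synthesis (mainly SREBP1, from Srebf1). Insig1 and Insig2 hold Scap back when sterol is plentiful. LXR factors, which sense oxysterols, raise Srebf1, the efflux pumps Abca1 and Abcg1, and Mylip, a ubiquitin ligase that removes lipoprotein receptors. SREBP activity is set largely by cleavage of the protein, which mRNA levels do not show. The heart mostly burns fatty acids that it takes up, and synthesis is a lesser source there.

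The members' promoters are shown for what they share in sequence; their motifs were not compared with the array differences. RefSeq promoter windows of the assembly GRCm38.p6, from 250 bases before to 50 bases after a gene's start, were found for 32 of the 40 genes, with 43 windows. The box CCAAT, read by the factor NF-Y, lay on either strand in at least 1 window of all 14 sterol synthesis genes in that table. It lay in 14 of their 17 windows (82.4%), against 37.4% of the 32851 windows of the table and 37.4% of the 18109 windows of measured genes. It lay in 60% of the 10 windows of fatty acid synthesis genes and in 33.3% of the 6 windows of the LXR group. The Sp1 box GGGCGG lay in 82.4% of the sterol synthesis windows, against 35.7% of all windows and 52.3% of those of measured genes. The E-box CACGTG lay in 18.6% of member windows and in 7.15% of all windows. The SREBP element TCACNCCAC was found in 1 member window, that of Hmgcs1, where it begins 137 bases before the start, and in 1.24% of all windows. A longer form of that element and the DR4 element, the direct repeat that LXR binds, were in no member window, and in 0.0913% and 0.0152% of all windows. Windows were searched on both strands, a match describes the letters alone, and a missing match says only that these letters are absent from a short window. Shown here as examples are the windows of Hmgcs1, the only member with the SREBP element, and of Cyp51, Fasn and Srebf1. These are only some of the members whose knockout and control values did not overlap. Every window shown holds a CCAAT box. Among such members, however, the windows of Scap, 1 window of Pmvk and 1 other window of Srebf1 hold none. Capitals mark the SREBP element and the CCAAT box or its reverse complement ATTGG, and in Fasn CCAAT and ATTGG overlap once. For Srebf1, which has 3 windows in the table, the one farthest downstream is shown.
Hmgcs1, chr13:119690101-119690400, plus strand: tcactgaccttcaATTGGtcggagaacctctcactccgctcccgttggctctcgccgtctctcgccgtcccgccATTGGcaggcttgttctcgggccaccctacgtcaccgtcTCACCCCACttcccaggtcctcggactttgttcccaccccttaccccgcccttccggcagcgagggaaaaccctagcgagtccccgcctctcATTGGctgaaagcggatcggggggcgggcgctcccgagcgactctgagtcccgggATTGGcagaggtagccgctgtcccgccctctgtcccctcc
Cyp51, chr5:4104648-4104947, minus strand: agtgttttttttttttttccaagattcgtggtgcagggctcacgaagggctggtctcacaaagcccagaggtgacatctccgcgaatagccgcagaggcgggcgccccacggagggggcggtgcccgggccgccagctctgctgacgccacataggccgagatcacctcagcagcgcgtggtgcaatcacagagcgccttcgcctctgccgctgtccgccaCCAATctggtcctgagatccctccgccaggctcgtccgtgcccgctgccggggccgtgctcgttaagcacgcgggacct
Fasn, chr11:120824498-120824797, minus strand: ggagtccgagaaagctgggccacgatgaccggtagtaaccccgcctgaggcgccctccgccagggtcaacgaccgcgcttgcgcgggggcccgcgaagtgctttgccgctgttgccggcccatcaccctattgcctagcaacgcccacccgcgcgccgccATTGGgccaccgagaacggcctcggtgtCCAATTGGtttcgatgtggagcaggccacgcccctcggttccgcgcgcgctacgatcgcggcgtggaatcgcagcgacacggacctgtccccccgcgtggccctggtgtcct
Srebf1, chr11:60210422-60210721, minus strand: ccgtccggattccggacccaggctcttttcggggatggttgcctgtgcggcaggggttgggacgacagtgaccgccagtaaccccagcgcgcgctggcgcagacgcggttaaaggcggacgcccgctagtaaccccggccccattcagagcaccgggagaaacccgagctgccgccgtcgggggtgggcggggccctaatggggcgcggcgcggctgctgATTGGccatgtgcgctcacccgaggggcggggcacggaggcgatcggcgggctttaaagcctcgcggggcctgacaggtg

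Paxip1 checks the labels: on each of its 4 probe sets all 3 knockout mice lay below all 3 controls, by 0.95 to 1.83 on the log2 scale, and 3 of the 4 passed (limma adjusted p from 0.0240 to 0.0377). The brightest of the 4, the kind of probe set that represents each member below, differed by -0.95 and did not pass (limma adjusted p = 0.106). A true loss of the deleted gene's RNA can thus miss the threshold on the brightest probe set. The arrays correlated at 0.989 to 0.995. The log2 excess of the 3' over the 5' probe set of Gapdh, which grows with RNA degradation, was 0.92, 0.93 and 0.90 in knockouts 1, 2 and 3 and 1.27, 0.66 and 0.79 in controls 1, 2 and 3, so control 1 was highest. Control 1 was also the highest of the 3 controls for 23 of the 38 members and the lowest for 10. Cardiomyocyte markers were bright on all arrays: the 8 measured had mean log2 levels of 13.31 to 13.39 across the mice.

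No sterol, fatty acid or LXR gene passed the test in the knockout ventricles. With limma, 0 of the 38 had an adjusted p under 0.05, where 0.286% of all genes did, and the smallest adjusted p was 0.313. At an unadjusted limma p under 0.05 there were 2 members, or 5.26%, Srebf1 and Fasn, both higher in the knockout mice. Among all genes 9.27% reached that p, made up of 5.47% of all genes higher and 3.8% lower in the knockout mice. The members' share was thus near or under the background. Differences ran from -0.25 for Acss2 to 0.44 for Srebf1, with a median of 0.06, beside a median of 0.02 over all genes. The median size of a difference was 0.10 with a median standard error of 0.13, against 0.12 and 0.14 over all genes. In 30 of the 38 genes the difference was smaller than the range of the 3 controls.

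The intervals say how large a change of each gene's brightest probe set these 6 mice leave room for. On that probe set a 95% limma interval, taken for each gene alone, lay within 2-fold in both directions for all 38 members. It lay within 0.5 on the log2 scale for 27. The lowest of these bounds was -0.75 for Hsd17b7 and the highest 0.83 for Mvk. Dimmer probe sets of Hsd17b7, Fads1 and Acly had intervals that reached past 2-fold. For Paxip1 the interval of the brightest probe set left out the larger losses read on its other probe sets. The intervals therefore do not bound the change of a gene's RNA as a whole. The values are those of bulk tissue: a larger change confined to a minor cell type, or a change in the share of a cell type, would be diluted, and fewer cells of a type and less RNA per cell cannot be told apart.

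**Figure D1:**
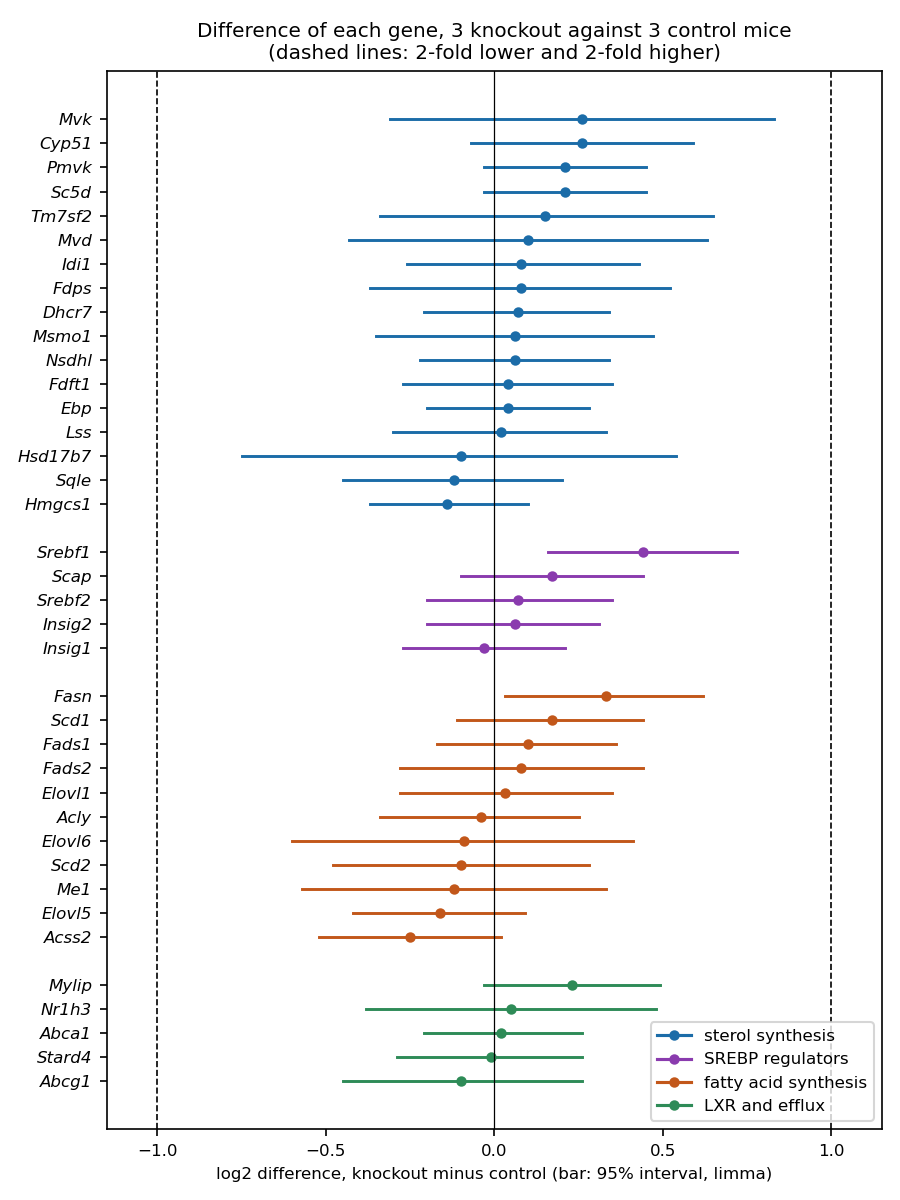
Log2 difference, knockout minus control, of the brightest probe set of each of the 38 genes (point) with its 95% interval from limma (bar), 3 knockout against 3 control mice, coloured by gene group; the dashed lines mark 2-fold. All intervals stay inside the dashed lines, and only those of Srebf1 and Fasn leave out 0.

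Knockout and control values did not overlap for 11 members, 28.9%, of which 8 were higher and 3 lower in the knockout mice. Over all genes 16% did not overlap, 9.44% higher and 6.57% lower. The higher ones were Cyp51, Pmvk and Sc5d of sterol synthesis, Srebf1 and Scap of the regulators, Fasn and Scd1 of fatty acid synthesis, and Mylip. The lower ones were Hmgcs1, Acss2 and Elovl5. For each of these the exact permutation p was 0.1, two-sided, the smallest that 3 against 3 mice allow.

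**Figure D2:**
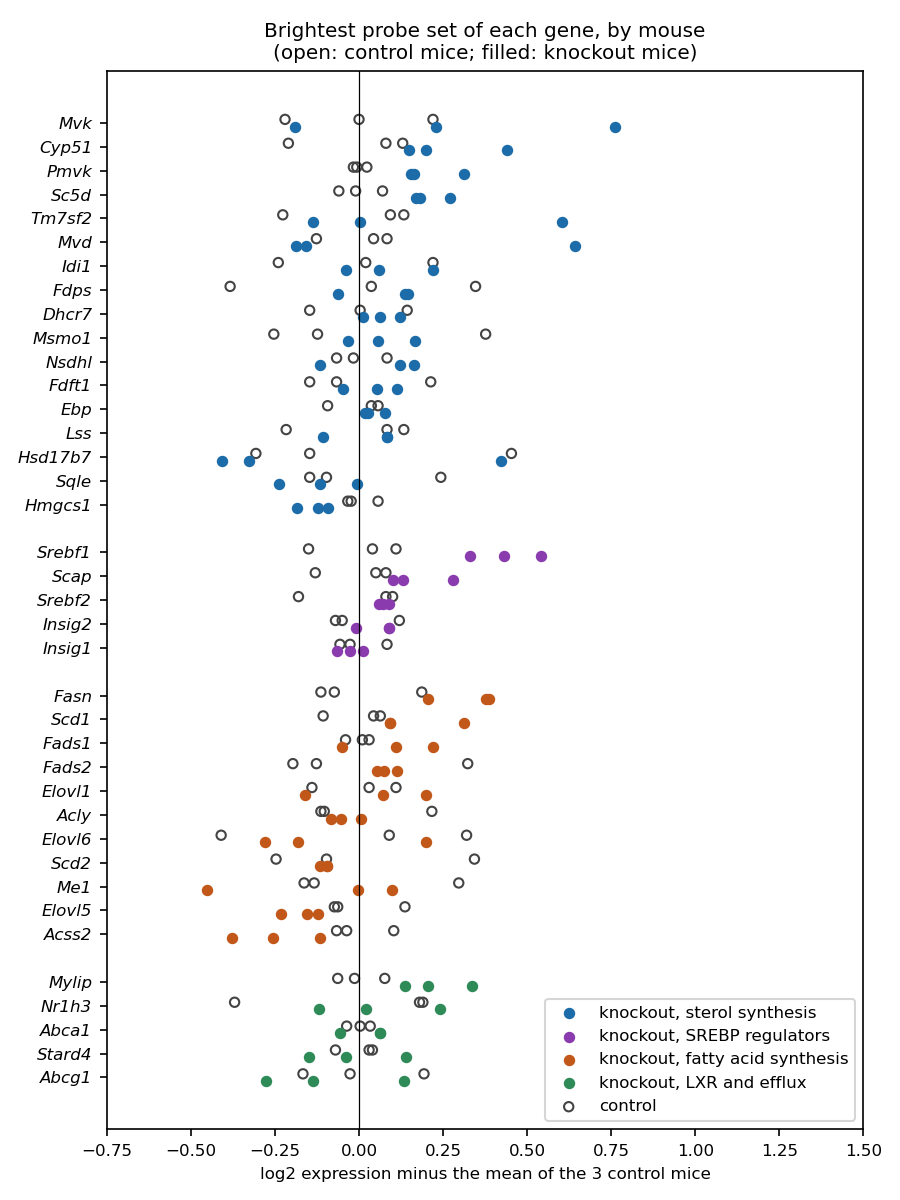
Log2 expression of the brightest probe set of each gene in each mouse, minus the mean of the 3 controls, with open circles for controls and filled circles for knockouts, coloured by group. Filled and open circles are separate for 11 of the 38 genes, and most lie within 0.5 of the control mean.

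The sterol synthesis enzymes had small differences, most of them positive: 14 of 17 were higher and 3 lower, with a median of 0.07 and none passing. Over all genes 55.1% were higher. The median deviation of the 17 genes from their control means was 0.06, 0.08 and 0.02 in knockouts 1, 2 and 3. In controls 1, 2 and 3 it was 0.08, -0.02 and -0.03, so control 1 was level with the highest knockout. Hmgcs1, which condenses acetoacetyl-CoA at the head of the mevalonate pathway, read 12.29, 12.35 and 12.38 in knockouts 1, 2 and 3 and 12.53, 12.45 and 12.44 in controls 1, 2 and 3. The groups were apart, but by only 0.14: the difference was -0.14 (SE 0.10, 95% interval -0.37 to 0.10, limma adjusted p = 0.780). All 5 Hmgcs1 probe sets were lower, by differences of -0.17 to -0.09.

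Next in the pathway come the kinases that phosphorylate mevalonate. Mvk, the first of them, read 7.83, 6.88 and 7.30 in the knockouts and 6.85, 7.29 and 7.07 in the controls. Knockout 1 alone stood above all controls by a wide margin, and the groups overlapped (difference 0.26, SE 0.24, limma adjusted p = 0.836). Without knockout 1 the Mvk difference was 0.02. Pmvk, the second kinase, read 8.89, 8.74 and 8.73 against 8.60, 8.56 and 8.57. Its groups did not overlap, and the difference of 0.21 (SE 0.10, interval -0.03 to 0.45) had a limma adjusted p of 0.624. Mvd, which decarboxylates the product to isopentenyl pyrophosphate, was high in knockout 1 as well, at 7.68 against 6.88 and 6.85 in the other knockouts and 6.91 to 7.12 in the controls.

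On their brightest probe sets, the genes for the steps from isoprenoids to squalene overlapped between groups. Idi1, the isomerase of isopentenyl pyrophosphate, differed by 0.08, Fdps, which makes farnesyl pyrophosphate, by 0.08, and Fdft1, which joins it into squalene, by 0.04 on the brightest of 4 probe sets, all of them higher. A second bright Fdft1 probe set read 10.20, 10.02 and 9.99 in the knockouts and 9.82, 9.79 and 9.86 in the controls, groups that were apart, with a difference of 0.25 (limma adjusted p = 0.568). Sqle, the squalene epoxidase and a rate-limiting enzyme of the later pathway, read 6.17, 6.29 and 6.40 in the knockouts and 6.65, 6.31 and 6.26 in the controls. Knockout and control values were interleaved, with a difference of -0.12 (SE 0.14, interval -0.45 to 0.20, limma adjusted p = 0.868). Lss, the cyclase that makes lanosterol, differed by 0.02.

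Among the enzymes from lanosterol to cholesterol, Cyp51 and Sc5d were apart between the groups. Cyp51, the lanosterol demethylase, read 8.66, 8.37 and 8.42 in the knockouts and 8.35, 8.01 and 8.30 in the controls. The lowest knockout was just above the highest control, and the difference was 0.26 (SE 0.14, interval -0.07 to 0.59, limma adjusted p = 0.664). All 3 Cyp51 probe sets were higher, by 0.16 to 0.37. Sc5d, a late-acting desaturase of the sterol ring, read 8.31, 8.30 and 8.40 against 8.12, 8.07 and 8.20, a difference of 0.21 (SE 0.10, interval -0.03 to 0.45, limma adjusted p = 0.624). Its 3 probe sets were all higher, by 0.15 to 0.27. The reductase Tm7sf2 differed by 0.15, and its highest value, 7.44 in knockout 1, stood apart from a range of 6.61 to 6.97 in the other mice. Msmo1, listed under its older symbol Sc4mol, differed by 0.06, Nsdhl by 0.06, Ebp by 0.04 and Dhcr7, which makes cholesterol in the final step of one branch, by 0.07.

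Hsd17b7, a ketoreductase of the same stretch, varied more between mice than between groups. It read 9.44, 10.19 and 9.36 in knockouts 1, 2 and 3 and 10.22, 9.62 and 9.46 in controls 1, 2 and 3. Knockout 2 and control 1 were high together, and the same pair led on a second probe set, at 8.10 and 8.21 with the other mice at 7.37 to 7.69, and on a dimmer one, at 5.72 and 5.59 with the others at 4.17 to 4.75. The difference between groups was -0.10 (SE 0.28). On the brightest probe sets this gene had the widest interval of the members, -0.75 to 0.54.

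Of the SREBP regulators, Srebf1 had the largest difference and the other 4 differed by less than 0.2 on the log2 scale. Srebf1, the gene of SREBP1, read 9.21, 9.00 and 9.10 in knockouts 1, 2 and 3 and 8.52, 8.78 and 8.71 in controls 1, 2 and 3. All knockouts were above all controls, with control 1 lowest. The difference was 0.44 (SE 0.12, interval 0.16 to 0.72), or 1.35-fold, and it did not pass over all probe sets (limma adjusted p = 0.313). One probe set measured Srebf1, so its promoters and transcript forms were not separated. Leaving out control 1 gave 0.36 (limma adjusted p = 0.351). Srebf2, the gene of SREBP2, read 8.80, 8.78 and 8.77 in the knockouts and 8.81, 8.79 and 8.53 in the controls. Except for a lower control 3 these values were nearly the same, and the difference of 0.07 (SE 0.12, interval -0.20 to 0.35, limma adjusted p = 0.916) changed sign to -0.02 without that mouse.

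The sterol sensor genes lay close together in all mice. Scap, the escort of the SREBP precursors, read 9.53, 9.38 and 9.35 against 9.30, 9.12 and 9.33, groups that just failed to overlap, with a difference of 0.17 (SE 0.12, limma adjusted p = 0.758). Its dim second probe set differed by -0.14, and the mean of both by 0.02. Insig1, itself a target of SREBP and so a common readout of its activity, read 10.03, 9.99 and 9.95 in the knockouts and 9.99, 10.10 and 9.96 in the controls. Its groups overlapped, with a difference of -0.03 (SE 0.10, interval -0.27 to 0.21, limma adjusted p = 0.970), which was 0.01 after subtracting array medians. Insig2 read 9.48, 9.58 and 9.58 against 9.42, 9.61 and 9.44, a difference of 0.06 (SE 0.11, limma adjusted p = 0.930), and its 3 probe sets differed by 0.01 to 0.06.

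Fatty acid synthesis genes went in both directions, 5 higher and 6 lower, with a median of -0.04 and none passing. Fasn, the fatty acid synthase that builds palmitate, read 8.70, 8.52 and 8.69 in knockouts 1, 2 and 3 and 8.50, 8.24 and 8.20 in controls 1, 2 and 3. Knockout 2 was just above control 1, and the other knockouts were clear of all controls. The difference was 0.33 (SE 0.13, interval 0.03 to 0.62), or 1.25-fold, on the single Fasn probe set (limma adjusted p = 0.499). Scd1, which puts the first double bond into palmitate and stearate, read 10.30, 10.08 and 10.08 against 10.05, 10.03 and 9.88, a difference of 0.17 (SE 0.12, limma adjusted p = 0.767). Scd2, its close relative, differed by -0.10, with control 1 highest at 9.63 and the other mice at 9.04 to 9.19.

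Acss2, Acly and Me1 supply acetyl-CoA and NADPH. Acss2, the cytosolic acetyl-CoA synthetase, read 9.51, 9.39 and 9.65 in the knockouts and 9.70, 9.73 and 9.87 in the controls. The groups were apart, with a difference of -0.25 (SE 0.12, interval -0.52 to 0.02, limma adjusted p = 0.602), the lowest of the 38. A second probe set differed by -0.23, and the dimmest by 0.36 in the other direction, so the probe sets of this gene disagreed. The dimmest, however, read 4.79 in control 1 and 5.51 to 5.88 in the other mice, so the size of its difference leans on control 1. Acly, which splits citrate into acetyl-CoA, differed by -0.04 on the brightest of its 6 probe sets, which were 3 higher and 3 lower. One dimmer probe set of Acly read 5.06 in control 1 and 6.06 to 6.92 in the other mice, the widest spread among the Acly probe sets and in the mouse with the highest 3' to 5' excess; the part of RNA quality in it was not tested. Me1, the cytosolic malic enzyme, differed by -0.12 on both probe sets.

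On their brightest probe sets the member elongases Elovl1, Elovl5 and Elovl6 and the desaturases Fads1 and Fads2 differed by less than 0.2 in either direction. Elovl5, an elongase of polyunsaturated fatty acids, read 11.48, 11.56 and 11.59 against 11.85, 11.64 and 11.65, groups that were just apart, with a difference of -0.16 (SE 0.11, interval -0.42 to 0.09, limma adjusted p = 0.753). Its second probe set differed by -0.18. Elovl1, which elongates saturated very long chains, differed by 0.03 and was higher on all 4 probe sets, by up to 0.13. Elovl6, which elongates palmitate, differed by -0.09. Fads1, a desaturase of polyunsaturated fatty acids, read 8.45, 8.56 and 8.29 in the knockouts and 8.37, 8.30 and 8.35 in the controls, overlapping, with a difference of 0.10 (SE 0.11, limma adjusted p = 0.876). Its dim second probe set differed by -0.44, so the mean of both probe sets was -0.17. Fads2, its partner enzyme, differed by 0.08.

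The LXR group had a median of 0.02, with 3 of 5 higher and 2 lower. Nr1h3, the gene of LXR alpha, read 7.18, 6.82 and 6.96 in the knockouts and 6.57, 7.12 and 7.13 in the controls. Control 1 was the lowest of the 6 mice, and the difference of 0.05 (SE 0.18, limma adjusted p = 0.968) became -0.13 without it and -0.04 without knockout 1. The pumps that LXR induces were level: Abca1, which loads cholesterol onto lipid-poor apolipoprotein, differed by 0.02 (interval -0.21 to 0.26), and Abcg1, which exports it to lipoprotein particles, by -0.10 (interval -0.45 to 0.26). Mylip read 7.48, 7.68 and 7.55 against 7.42, 7.33 and 7.28. Its lowest knockout was just above its highest control, with a difference of 0.23 (SE 0.11, interval -0.03 to 0.49, limma adjusted p = 0.611). Stard4, a cytosolic carrier of cholesterol and an SREBP target, differed by -0.01 on its brightest probe set and by -0.33 and -0.32 on the others, of which the dim last had an unadjusted limma p under 0.05 (limma adjusted p = 0.518).

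Across the 88 member probe sets none passed, and the smallest adjusted p was 0.280 in limma, on a dim Msmo1 probe set. That probe set read 4.28, 4.33 and 4.23 in the knockouts and 4.74, 4.58 and 4.78 in the controls, a difference of -0.42, while the bright Msmo1 probe set differed by 0.06. At an unadjusted limma p under 0.05 there were 5 member probe sets, 5.68%, where 9.07% of all probe sets reached that p and 0.191% passed the adjusted threshold. Of these 5, 3 had a mean below 5.19, the median of all probe sets. Among the 27 genes with several probe sets, 15 had all of them on the same side of 0, and among the 18 genes with several above that median, 15 did. The 3 exceptions were Acly, Acss2 and Scd2.

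**Figure D3:**
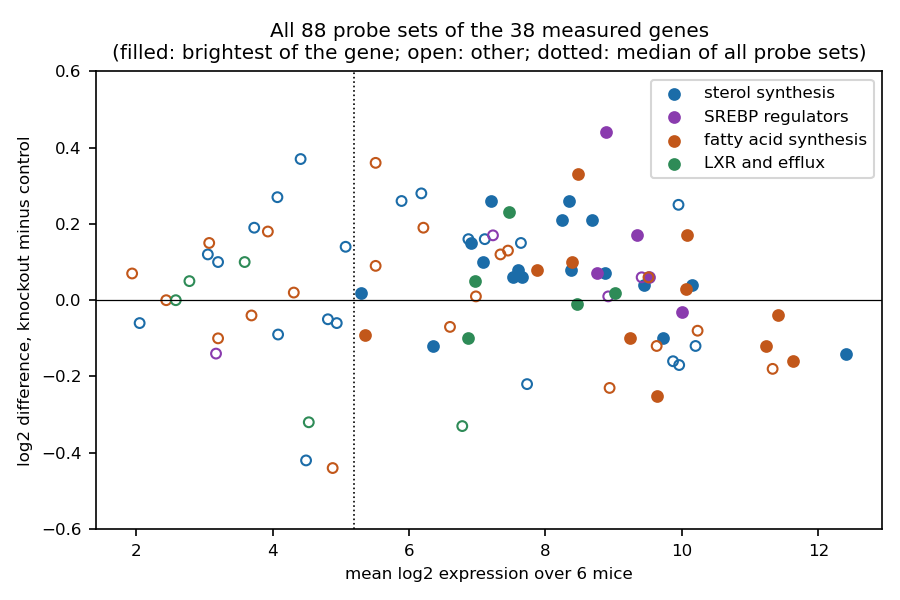
Log2 difference, knockout minus control, against mean log2 expression over the 6 mice for the 88 probe sets of the 38 genes, filled for the brightest probe set of a gene and open for the others. Differences lie between -0.44 and 0.44, and the dotted line marks the median mean level of all probe sets, 5.19.

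Other genes of the same pathways, from lists that hold no member, also had no call. Of 21 measured cholesterol and SREBP2 genes, 1 was higher and none lower at an unadjusted limma p under 0.05, or 4.76% against 9.27% of all genes. Their median difference was 0.02. That one was Lipa, the lysosomal acid lipase that frees cholesterol from its esters. Lipa read 9.37, 9.18 and 9.49 in knockouts 1, 2 and 3 and 8.42, 8.50 and 8.45 in controls 1, 2 and 3. The groups were far apart, with a difference of 0.89 (SE 0.12, interval 0.61 to 1.16) that fell just short of passing (limma adjusted p = 0.0510). A second Lipa probe set differed by 0.86 (limma adjusted p = 0.315) and the other by -0.49 (limma adjusted p = 0.527), so the probe sets disagreed in sign. The difference of the brightest one was 0.82 to 0.97 when single mice were left out, with limma adjusted p from 0.106 to 0.219. It passed with a variance trend (limma adjusted p = 0.0195), array weights (0.0291), a filter on dim probe sets (0.0350) and centring of the arrays (0.0417). It did not pass with the replicate block (limma adjusted p = 0.228) or without moderation (0.266). With the leading digits of the number in the labels as a block it did not pass either (limma adjusted p = 0.413). The 4 mice that share those digits, knockout 3 and the controls, hold only 1 knockout and cannot decide. The mean of the 3 Lipa probe sets differed by only 0.42 (limma adjusted p = 0.151). Stard3, a cholesterol carrier of late endosomes, differed by 0.19, Lrp8, a lipoprotein receptor, by -0.27, and Mbtps2, a protease that cleaves SREBP, by 0.13.

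Of 27 other lipogenesis genes, 4 were higher and 1 lower at an unadjusted limma p under 0.05, or 18.5% against 9.27% of all genes, with a median near 0. Pnpla3, a lipid droplet acyltransferase and lipase, was dim and read 3.77, 3.94 and 3.70 against 4.39, 5.20 and 4.46, a difference of -0.88 (SE 0.22, limma adjusted p = 0.271). Tecr, the reductase of very long chain synthesis, differed by 0.38 and 0.35 on its 2 probe sets (limma adjusted p = 0.414 and 0.437), with no overlap between groups on either. The malic enzyme Me2 differed by 0.47 on the brightest of 4 probe sets (limma adjusted p = 0.379), with 0.16, 0.05 and -0.24 on the others, and the citrate carrier Slc25a1 by 0.29 (limma adjusted p = 0.519). The fourth of the higher genes was Elovl7, an elongase that was dim and overlapped between groups, with a difference of 0.54 (limma adjusted p = 0.526). Of 20 other LXR targets and partners, 2 were higher and 3 lower at an unadjusted limma p under 0.05, or 25% against 9.27% of all genes, with a median of 0.02. Cyp27a1, which makes an oxysterol, differed by 0.54 (limma adjusted p = 0.363), Abca7, a lipid transporter, by 0.43 (limma adjusted p = 0.386), Lpcat3, which remodels phospholipids, by -0.49 (limma adjusted p = 0.421) and the dim Abcg8, a sterol pump partner, by -0.33 (limma adjusted p = 0.393). The remaining lower gene was Rxrg, at -0.33 with the groups apart (limma adjusted p = 0.496). Its relatives Rxra and Rxrb went the other way, by 0.47 and 0.22, and overlapped between groups (limma adjusted p = 0.573 and 0.714).

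**Figure D4:**
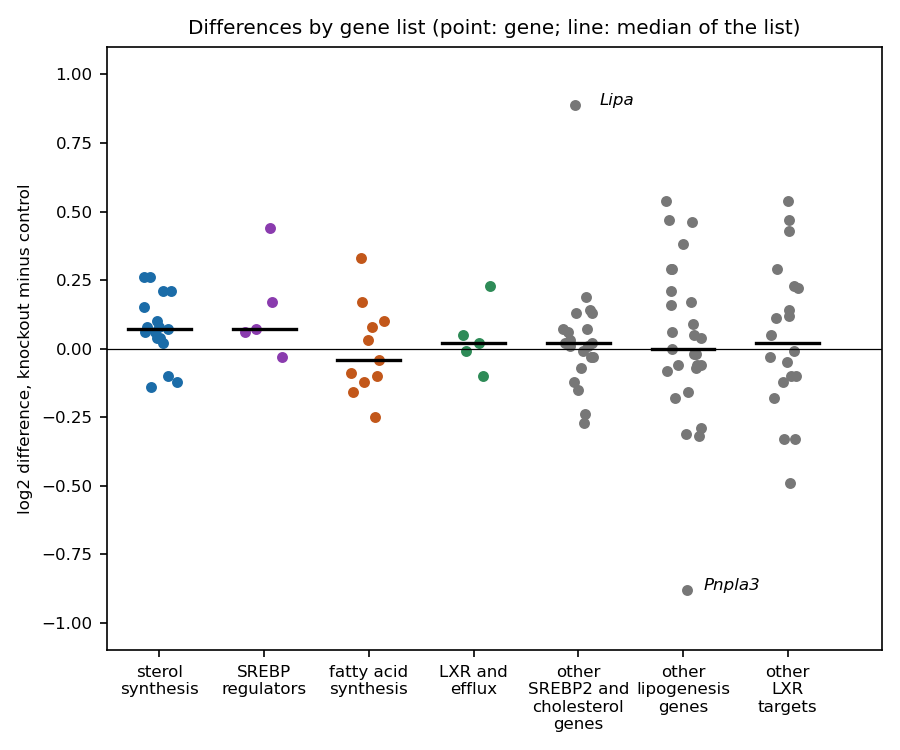
Log2 difference, knockout minus control, of the brightest probe set of each gene (points) with the median of the list (line), for the 4 member groups and 3 lists of related genes. All medians lie between -0.04 and 0.07, and Lipa at 0.89 and Pnpla3 at -0.88 lie farthest from 0.

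Adipocytes and macrophages also carry these pathways, and no marker of either passed. All 7 measured adipocyte markers were higher in the knockout mice, with a median of 0.25. Of the 7, 5 overlapped between groups. The 28.6% that did not were all higher, where 9.44% of all genes were higher without overlap. Lipe alone (14.3%) had an unadjusted limma p under 0.05, where 9.27% of all genes did. The cells' defining genes were dim: Adipoq read 4.21 to 4.89 and Cidec 3.27 to 3.75 over the 6 mice. Their summed level, on the linear scale, was 10173 to 10319 in the knockouts and 9088 to 10231 in the controls, a sum carried mainly by Fabp4 and Pnpla2 (mean log2 levels of 12.81 and 11.09) that does not measure adipocyte content. All 10 macrophage markers, a cell type rich in the LXR efflux genes, were lower, with a median of -0.33. At an unadjusted limma p under 0.05, 4 of the 10 (40%) were lower, where 3.8% of all genes were. Only those 4, Csf1r, Adgre1, Cd163 and Mrc1, were apart between groups (40%), where 6.57% of all genes were lower without overlap. The summed level of the 10 was 5423 to 7585 in the knockouts and 7776 to 8601 in the controls, which did not overlap. That sum was carried mainly by Lyz2, Csf1r and C1qb (mean log2 levels of 11.09, 10.85 and 10.47), of which Lyz2 and C1qb overlapped. Of the 10, 9 had a mean above the median of all probe sets. Itgam was dim at 2.75 and differed by only -0.01. The part of either cell type in the values of Fasn, Scd1, Srebf1, Abca1, Abcg1 and Lipa was not tested.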

How the data were processed

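Arrays of 6 mice (3 per group) were analysed. The authors deposited log2 expression values made with RMA (background correction, normalisation between arrays and summary per probe set), per the submitters' processing notes. No source states the RMA version or the log base; values between 1.36 and 14.1 were read as log2. Normalisation hides any change in total RNA, and changes of dim probe sets come out too small. Precision is limited by 3 mice a group.

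Of 45101 probe sets, 64 controls were left out. Symbols came from the platform annotation, updated through Entrez identifiers (34741 of the 34945 one-gene probe sets matched) with RefSeq of GRCm38.p6. A gene is represented by its probe set with the highest mean. Knockout minus control was fitted with limma 3.58.1 in R 4.3.3 over all 45037 probe sets (lmFit, eBayes, group only, two-sided, Benjamini-Hochberg, threshold 0.05). On data simulated for this comparison over the same 45037 probe sets, 52 of 100 log2 changes of 1 and 90 of 100 changes of 2 were recovered. Named with all values were the 14 members of smallest p plus Srebf1, Srebf2, Scap, Insig1, Insig2, Nr1h3, Sqle, Fasn and Scd1, and up to 4 genes of each related list. Other genes and probe sets are named for a step, a disagreement, a single mouse or to complete a count, chosen after their values were seen. Members, groups and lists were chosen with earlier results of these data known. Nothing in the labels says that equal replicate numbers pair mice, and deviations of equally numbered mice correlated at -0.151, -0.0817 and -0.0108, so the numbers were not used as pairs. Alternatives were other variance models, array weights, other normalisation, a filter on dim probe sets, the mean of a gene's probe sets, blocks, an array subset and each mouse left out; the count of intervals and Lipa under all settings were added after seeing the data.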

Additional observations from a re-analysis of the deposited data

How the results depend on the processing

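The count of 0 members passing held in all 18 other settings, and the lowest adjusted p of any of the 18 named members was 0.195. Some settings could give no other count. With the replicate block, without knockout 1 or without control 2, no probe set of any gene passed. With the 4 arrays or the label number series as a block, the difference rests on knockout 3 alone against the controls. Those settings therefore add nothing to the count of 0. Without moderation or without knockout 2, only 1 probe set passed over all genes, so these settings add little to it. The count of intervals within 2-fold, added after seeing the data, ran from 36 to 38. Of the named members, 14 kept their sign in the settings tried. Fads1 turned to -0.05 with 4 arrays of 1 label number series or that series as a block, and to -0.17 with the mean of its probe sets; Insig1 turned to 0.01 with centring on the array median and ran from -0.06 to 0.01 with single mice left out; Nr1h3 turned to -0.08 with array weights and ran from -0.13 to 0.15, and Srebf2 from -0.02 to 0.12, with mice left out. Members higher at an unadjusted p under 0.05 numbered 2, but 1 with the replicate block, 0 with the 4 arrays (knockout 3 and the controls, whose label numbers start alike, so the lone knockout is assumed to vary like the controls) or the label series as a block, 5 without moderation, 4 with the mean of probe sets, and 1 to 2 with mice left out. Members lower numbered 0, but 2 with a variance trend and 1 without moderation.

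The sterol synthesis median was 0.02 with the 4 arrays or the label series block and 0.02 to 0.12 with mice left out. The SREBP regulator median ran from 0.03 to 0.12 and the fatty acid synthesis median from -0.10 to 0.07 with mice left out. The LXR median was 0.13 with the 4 arrays or the label series block. Over all probe sets, 86 passed, but 185 with a variance trend, 51 with a robust prior, 204 with array weights, 196 at an adjusted p under 0.1, 1 without moderation, 0 with the replicate block, the 4 arrays or the label series block, and 0 to 21 with mice left out. Paxip1 probe sets passing numbered 3, but 0 with the replicate block, the 4 arrays, the label series block, without moderation or with any 1 mouse left out. The cause was not tested, except that leaving out mice or adding a block leaves fewer residual degrees of freedom. With 3 mice a group, small changes could not be told from 0, so a member that did not pass is not shown to be unchanged.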

Other observations

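Genes named among the cell type markers gave the following values, with no explanation offered. Ttr, the transthyretin gene, was the only gene of the marker lists to pass: it read 6.72, 6.97 and 7.42 in knockouts 1, 2 and 3 and 4.75, 5.20 and 5.32 in controls 1, 2 and 3, and rose by 1.95 (limma adjusted p = 0.0377). The other hepatocyte markers were dim, with Alb between 2.27 and 2.57, and none passed. All 4 mesothelial markers had a lower mean in the knockouts and overlapped between groups, with a median difference of -0.67. The knockouts did not share this: the median deviation from the control means was -0.81, -1.89 and 0.58 in knockouts 1, 2 and 3. In controls 1, 2 and 3 it was 0.37, 0.26 and -0.49. Knockout 3 was the highest of the 6 mice for Msln, Upk3b and Lrrn4. Cidea, a lipid droplet protein whose transcript is also found outside brown fat, read 8.75, 8.96 and 8.98 in knockouts 1, 2 and 3 and 9.30, 9.96 and 9.72 in controls 1, 2 and 3, a difference of -0.76 (limma adjusted p = 0.242). The brown fat gene Ucp1 was dim in all mice, between 2.45 and 3.02. Sox10, a factor of Schwann cells, read 7.00, 6.54 and 6.27 against 6.13, 5.95 and 6.09, and differed by 0.54 (limma adjusted p = 0.441), and Mbp, a myelin gene, by 0.49 (limma adjusted p = 0.489).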
